A study of Mus musculus with 11 samples.

Results

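The flavin-containing monooxygenases Fmo1, Fmo2, Fmo4 and Fmo5 and the retinal dehydrogenases Aldh1a1, Aldh1a2 and Aldh1a3 were followed across 6 cell populations sorted from mouse bone. These 7 genes, of 18193 genes with a probe set that names a single gene, were taken by their symbols in the array's annotation. They had 15 such probe sets of 45037 tested, and the brightest one on average over the 11 arrays led each gene. The members were chosen by a measured value, the difference in Fmo2 between periosteal stem cells and Osx+ cells, with its relatives taken along. That difference is therefore a description for every member, and so is every Fmo2 value that rests on either of those populations.

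The study asked how skeletal stem/progenitor cells (SSCs) of the periosteum, the sheath on the outside of bone, compare with those of the marrow. RNA of cells sorted from 2 to 3 male and female mice, with no culture, was hybridised to Affymetrix mouse A430 arrays. P-SSCs were periosteal cells (2 arrays) that lacked CD45, CD31 and Ter119, carried CD105 and CD140a, and were Mx1+Ocn- in mice that combined Mx1-Cre and Rosa-Tomato with Osteocalcin-GFP. BM-SSCs were marrow cells (2 arrays) with the same surface gate that were Mx1+Nes+ in mice that combined Mx1-Cre and Rosa-Tomato with Nestin-GFP. All Mx1 mice were irradiated with 9.5 Gy at 4 weeks of age and given wild-type C57BL/6 marrow. They received pIpC 6 to 8 weeks later, at 25 mg/kg every other day for 10 days. The Mx1 promoter answers interferon and is active in blood cells as well as in stroma, and host marrow was replaced before it was induced. The Nes+ array held the same surface gate from marrow with Mx1 either way; its source field nonetheless reads periosteal tissue, as does that of the Osx+ arrays. CD51+ cells were CD45-CD31-Ter119- marrow cells (2 arrays), which the study's text also describes as CD105+CD140a+. Osx+ cells were CD45-CD31-Ter119- osteolineage precursors marked by an Osterix-GFP transgene (2 arrays), and CD45+ cells were marrow blood cells (2 arrays). Ages at sorting, and the strain and treatment of the CD51+, Osx+ and CD45+ donors, are not given in the sources used here.

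Flavin-containing monooxygenases sit in the endoplasmic reticulum and use NADPH and oxygen to oxidise nitrogen and sulfur atoms of drugs and other small molecules. Fmo1 and Fmo2 are the forms best known from kidney and lung of the mouse, and Fmo5 differs from the others in acting mainly on carbonyl compounds. The retinal dehydrogenases convert retinal to retinoic acid, a ligand of nuclear receptors that patterns the limb skeleton and acts on bone cells, and Aldh1a1 activity is widely used as a dye-based marker of stem cells.

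Fmo1, Fmo2 and Fmo4 lie on chromosome 1, Fmo5 on chromosome 3, Aldh1a3 on chromosome 7, Aldh1a2 on chromosome 9 and Aldh1a1 on chromosome 19. The 250 bases before the annotated start are shown for Fmo2 and for the pair with a window whose levels were most like it over the arrays, Aldh1a1 and Aldh1a2. The windows are from RefSeq on GRCm38.p6, where 5 of the 7 members had an entry (Fmo1 and Aldh1a3 did not match), and read 5′ to 3′ along the gene. They span chr1:162898759-162899008 (minus strand) for Fmo2, chr19:20601718-20601967 (plus strand) for Aldh1a1 and chr9:71215539-71215788 (plus strand) for Aldh1a2, and capitals mark motif matches. Fmo2 and Aldh1a1 each had a second annotated start, and the Aldh1a1 window not printed lies at chr19:20492333-20492582.
Fmo2: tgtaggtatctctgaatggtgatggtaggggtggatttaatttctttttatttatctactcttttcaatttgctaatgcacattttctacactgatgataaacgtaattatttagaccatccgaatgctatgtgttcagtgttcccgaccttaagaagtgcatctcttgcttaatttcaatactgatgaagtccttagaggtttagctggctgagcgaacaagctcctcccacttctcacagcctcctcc
Aldh1a1: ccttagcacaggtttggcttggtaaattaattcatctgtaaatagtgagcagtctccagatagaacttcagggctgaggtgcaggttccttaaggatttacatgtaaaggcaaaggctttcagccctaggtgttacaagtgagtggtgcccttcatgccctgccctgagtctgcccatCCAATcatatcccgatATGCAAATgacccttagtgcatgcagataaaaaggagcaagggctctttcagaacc
Aldh1a2: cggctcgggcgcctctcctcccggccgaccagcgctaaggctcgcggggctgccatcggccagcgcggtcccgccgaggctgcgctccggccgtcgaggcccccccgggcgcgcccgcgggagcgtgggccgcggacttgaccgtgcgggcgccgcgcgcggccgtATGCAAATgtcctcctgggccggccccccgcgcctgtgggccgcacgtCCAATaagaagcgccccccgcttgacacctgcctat

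A few short motifs were searched on both strands in all 32851 windows of this length. The hormone receptor half-site AGGTCA was present in 14.0% of them and the TATA box TATAAA in 12.4%. The CCAAT box CCAAT was present in 33.8%, the GC box GGGCGG in 32.7% and the octamer ATGCAAAT in 1.60%. None of the matches in member windows overlapped. The octamer was added to the search after the sequences had been read. It occurred in the printed Aldh1a1 window 56 to 49 bases before the start and in the Aldh1a2 window 84 to 77 bases before it. The CCAAT box occurred 72 to 68 bases before the Aldh1a1 start and 36 to 32 bases before the Aldh1a2 start. The window of the other Aldh1a1 start held no match to any of these motifs. The printed Fmo2 window held none either, while that of its other start held the half-site 9 to 4 bases before that start. The windows also differed in composition, with 77.6% G or C and 40 CpG in Aldh1a2, 46.4% and 1 in Aldh1a1, and 39.6% and 4 in Fmo2, beside a median G or C content of 52.4% over all windows.

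Before the members are described, the arrays themselves need a short account. Values are log2 intensities after robust multichip averaging, so that 1 unit is a doubling, and they compare 1 probe set between arrays, not different genes. Array medians lay between 4.43 and 4.94, but the interquartile range ran from 1.81 on P-SSC array 2 to 3.56. Averaging of this kind usually includes quantile normalization, which leaves equal ranges on all arrays, so it is uncertain how far the deposited values are comparable between arrays. After quantile normalization of the deposited values 8 member differences passed against CD45+ cells, all of them of Fmo genes, and 0 in the other comparisons. On P-SSC array 2 the median of 8 ribosomal protein genes was 7.16 and the actin control 7.81, against at least 11.77 and 12.78 elsewhere. Its correlation with P-SSC array 1 was 0.456 over all probe sets, that of the BM-SSC arrays 0.771, and that of the other pairs 0.985 to 0.995. Pdgfra encodes CD140a, on which the SSCs were gated, and its level was 4.41 against 11.29 between the P-SSC arrays and 6.90 against 10.95 between the BM-SSC arrays, the lower value being that of array 2 in both. Ptprc, which encodes CD45, read 12.06 and 12.05 in CD45+ cells but also 10.23 and 10.17 in CD51+ cells, which were gated against it. Itgav, which encodes CD51, read 10.10 and 10.27 in CD51+ cells but 10.73 and 10.79 in Osx+ cells. Pecam1, which encodes CD31, read 6.34 and 4.80 in P-SSCs, and the Mx1 transcript was highest in CD45+ cells at 7.03 and 6.72. Eng, which encodes CD105, read 8.32 and 7.59 in P-SSCs and 7.63 and 7.57 in BM-SSCs. Nes read 7.41 in Nes+ cells, 6.17 and 7.08 in BM-SSCs and 6.94 and 7.42 in P-SSCs. On every array 12.0% to 19.4% of the probe sets carried an exact value that another probe set also had, and so did 15 of the 77 values of the members' lead probe sets. Sp7, which encodes Osterix, was highest in Osx+ cells at 8.93 and 8.58. Member differences that involve SSC populations are therefore given from all arrays and again from a reduced set of 9 arrays, which leaves out array 2 of P-SSCs and of BM-SSCs. In that set each SSC population is 1 array, assumed to vary like the CD45+, CD51+ and Osx+ pairs, and more probe sets passed in every comparison that involves an SSC population. Its values show whether a difference keeps its size and are no support for a call. Because these are bulk samples, fewer cells of a type and less RNA per cell cannot be told apart. The methods call the arrays of a population 2 biological repeats, while the Nes+ population has 1 array and the labels name no animals, so the p-values measure the spread between at most 2 arrays per population.

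Fmo2 was high in CD51+ cells and in the SSC populations and low in Osx+ and CD45+ cells. Its lead probe set read 8.61 and 9.29 in CD51+ cells, 9.12 and 8.18 in P-SSCs, 7.45 and 7.26 on the BM-SSC arrays, 7.26 in Nes+ cells, 4.82 and 4.40 in Osx+ cells and 4.67 and 3.98 in CD45+ cells. The means fell in that order, from 8.95 ± 0.48 (SD, n = 2) in CD51+ cells to 4.32 ± 0.49 (SD, n = 2) in CD45+ cells. CD51+ arrays overlapped P-SSC arrays, BM-SSC arrays overlapped the Nes+ array and Osx+ arrays overlapped CD45+ arrays, while P-SSC arrays lay above both BM-SSC arrays and all 7 SSC, Nes+ and CD51+ arrays lay above all 4 Osx+ and CD45+ arrays. The difference that led to the choice of these genes, P-SSCs minus Osx+ cells, was 4.04 on the log2 scale, or 16.4-fold. In the same descriptive sense Fmo2 was 4.33 higher in P-SSCs than in CD45+ cells, 2.74 higher in BM-SSCs and 4.34 higher in CD51+ cells than in Osx+ cells, and 1.30 higher in P-SSCs than in BM-SSCs, and it differed by 0.29 between Osx+ and CD45+ cells.

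The comparisons whose means did not use those populations could be tested. Their spread was nonetheless estimated from all arrays, those of P-SSCs and Osx+ cells included. Fmo2 was 3.03 higher in BM-SSCs than in CD45+ cells (SE 0.458, adjusted p = 0.00887), which is 8.17-fold, and 4.63 higher in CD51+ cells than in CD45+ cells (SE 0.458, adjusted p = 0.00334), which is 24.7-fold. Both passed the threshold of 0.05 after Benjamini-Hochberg adjustment over all probe sets in limma's test. In limma fits of only the populations compared, the adjusted p was 0.0587 for BM-SSCs, which missed the threshold, and 2.86e-05 for CD51+ cells. BM-SSCs were 1.60 below CD51+ cells with no overlap of arrays, but the adjusted p was 0.263 (95% interval of BM-SSCs minus CD51+ cells -2.66 to -0.53). With 1 array of BM-SSCs, in the reduced set, those differences were -1.50 from CD51+ and 3.12 from CD45+ cells. Against the single Nes+ array BM-SSCs differed by 0.09 (95% interval -1.21 to 1.40, adjusted p = 1).

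**Figure D1:**
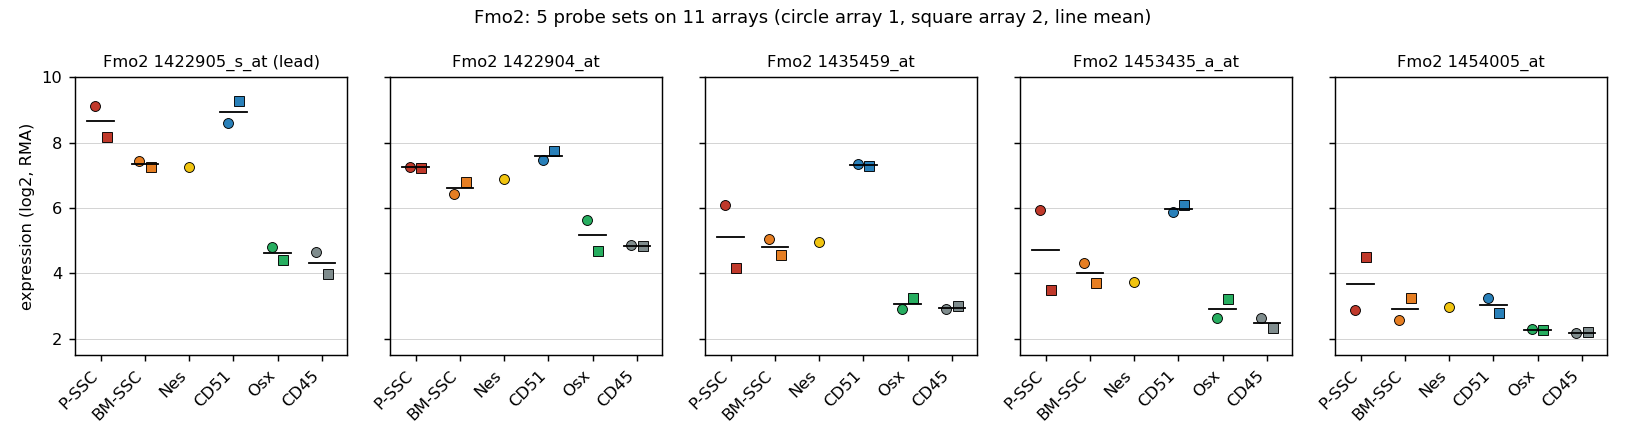
Expression of Fmo2 (log2, vertical axis) on each of 11 arrays by population (horizontal axis) for its 5 probe sets, with circles for array 1, squares for array 2 and a line for the mean. In all 5 panels both CD51+ arrays lie above the Osx+ and CD45+ arrays, by least for 1454005_at, and P-SSC array 2 (red square) moves from 8.18 in the lead panel to 4.15 and 3.48 in the 1435459_at and 1453435_a_at panels.

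The other 4 Fmo2 probe sets kept the low values in Osx+ and CD45+ cells but disagreed on P-SSC array 2. Probe set 1422904_at read 7.27 and 7.21 in P-SSCs, 7.46 and 7.74 in CD51+ cells, 6.42 and 6.79 in BM-SSCs, 6.88 in Nes+ cells, 5.63 and 4.70 in Osx+ cells and 4.87 and 4.82 in CD45+ cells. Probe sets 1435459_at and 1453435_a_at read 6.10 and 5.93 on P-SSC array 1 but 4.15 and 3.48 on array 2. The dimmest, 1454005_at, went the other way, at 2.87 and 4.50, and stayed between 2.18 and 3.26 on the other arrays. In CD51+ against CD45+ cells 1422904_at (2.75, adjusted p = 0.00938), 1435459_at (4.36, adjusted p = 0.00831) and 1453435_a_at (3.50, adjusted p = 0.0335) passed, and 1454005_at (0.83, adjusted p = 0.670) did not. In BM-SSCs against CD45+ cells only 1422904_at passed beside the lead (1.76, adjusted p = 0.0339). The suffix of the lead probe set marks probes that can bind more than 1 transcript, so its level may include related transcripts.

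Fmo1, which lies with Fmo2 on chromosome 1, was also lowest in CD45+ cells. It read 8.57 and 8.66 in CD51+ cells, 7.35 in Nes+ cells, 8.75 and 5.76 in P-SSCs, 7.85 and 6.31 on the BM-SSC arrays, 5.70 and 5.26 in Osx+ cells and 3.77 and 3.10 in CD45+ cells. Every stromal array lay above both CD45+ arrays, the Osx+ arrays lay between, and the P-SSC, BM-SSC and Nes+ arrays overlapped. The value on CD45+ array 2 lay under the lower quartile of that array, 3.12, and 94 other probe sets carried it too. Fmo1 was 5.18 higher in CD51+ than in CD45+ cells (SE 0.927, adjusted p = 0.0198), or 36.2-fold, and 3.82 higher in P-SSCs (adjusted p = 0.0430), or 14.1-fold. The same comparison in BM-SSCs gave 3.64 and missed the threshold (adjusted p = 0.0536). From 1 array each, in the reduced set, these became 5.31 for P-SSCs and 4.41 for BM-SSCs. The CD51+ and P-SSC calls were each kept in 4 of 10 fits that left out 1 array. Osx+ cells stood 2.04 above CD45+ cells (adjusted p = 0.299) and 3.14 below CD51+ cells (adjusted p = 0.208).

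Fmo4 stayed dim, and it was the 1 member whose mean over all arrays was under 3.51, the lower quartile of such means. It read between 2.85 and 3.29 on the CD45+, CD51+, BM-SSC and Osx+ arrays, 3.95 on the Nes+ array, and 3.50 and 5.63 in P-SSCs. The single high value, on P-SSC array 2, was an exact value that 407 other probe sets of that array also carried. None of the tested Fmo4 differences passed, the widest being 1.56 between P-SSCs and CD51+ cells (95% interval 0.12 to 3.002, adjusted p = 0.219). Without P-SSC array 2, in the reduced set, that difference was 0.50 (adjusted p = 0.0930).

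Fmo5 was high in CD51+ cells, as were Fmo1 and Fmo2, but also in CD45+ cells, where those were low. Its lead probe set read 6.87 and 7.05 in CD45+ cells and 6.96 and 7.34 in CD51+ cells, against 4.59 and 4.14 in P-SSCs, 4.11 in Nes+ cells, 4.49 and 3.55 in BM-SSCs and 3.65 and 3.91 in Osx+ cells. The first 4 arrays lay clear of the other 7, CD45+ and CD51+ cells overlapped, and so did BM-SSCs with the Nes+ array and with Osx+ cells. Against CD45+ cells Fmo5 fell by 2.59 in P-SSCs (SE 0.406, adjusted p = 0.0103), by 2.94 in BM-SSCs (adjusted p = 0.00636) and by 3.18 in Osx+ cells (adjusted p = 0.00293), while CD51+ cells differed by 0.19 (95% interval -0.76 to 1.13, adjusted p = 1). Relative to CD51+ cells it was 6.88-fold lower in P-SSCs (adjusted p = 0.0370), 8.74-fold lower in BM-SSCs (adjusted p = 0.0273) and 10.3-fold lower in Osx+ cells (adjusted p = 0.00720). Both SSC calls against CD51+ cells were kept in only 3 of 10 fits that left out 1 array (adjusted p up to 0.438 and 0.389) and in 5 of 10 other settings. They were lost with quantile normalization (adjusted p = 0.153 and 0.139), array weights (0.325 and 0.0862) and the replicate block (0.0660 and 0.0541). Limma fits of only the populations compared (0.411 and 0.351) and the second probe set, 1440899_at (0.220 and 0.448), lost them too. The calls of P-SSCs and BM-SSCs against CD45+ cells were also lost in fits of only the populations compared (0.131 and 0.0735). In the reduced set, with 1 array per SSC population, the differences of P-SSCs and BM-SSCs were -2.37 and -2.47 from CD45+ cells and -2.56 and -2.66 from CD51+ cells.

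On each of the 4 CD45+ and CD51+ arrays the lead value of Fmo5 was one that 5 to 8 other probe sets also carried. The lead probe set of Fmo5 has the same suffix as that of Fmo2, so its level may include related transcripts too. The other probe sets of Fmo5 moved the same way by less. Probe set 1440899_at read 4.69 and 4.58 in CD45+ cells, 4.50 and 4.12 in CD51+ cells and 2.997 to 3.86 elsewhere, and passed in Osx+ against CD45+ cells (-1.57, adjusted p = 0.0345). Probe set 1421709_a_at read 3.36 to 4.14 in CD45+ and CD51+ cells and 2.67 to 3.25 elsewhere and passed in no comparison. A list of 10 genes of all leukocytes, such as Ptprc, Tyrobp and Coro1a, was higher in the same 2 populations. Their summed level, on the log2 scale, was 15.34 and 15.28 in CD45+ cells, 13.58 and 13.67 in CD51+ cells and 7.05 to 11.13 on the other arrays. Of the 10, 8 were higher in CD51+ than in Osx+ cells (adjusted p under 0.05), beside 1.51% of all probe sets. Each of the 10 read lower on both CD51+ arrays than on both CD45+ arrays. The median difference was -1.87, and 2 of them passed at an adjusted p under 0.05, beside 2.90% of all probe sets as lower. Their part in the Fmo5 result was not tested.

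**Figure D2:**
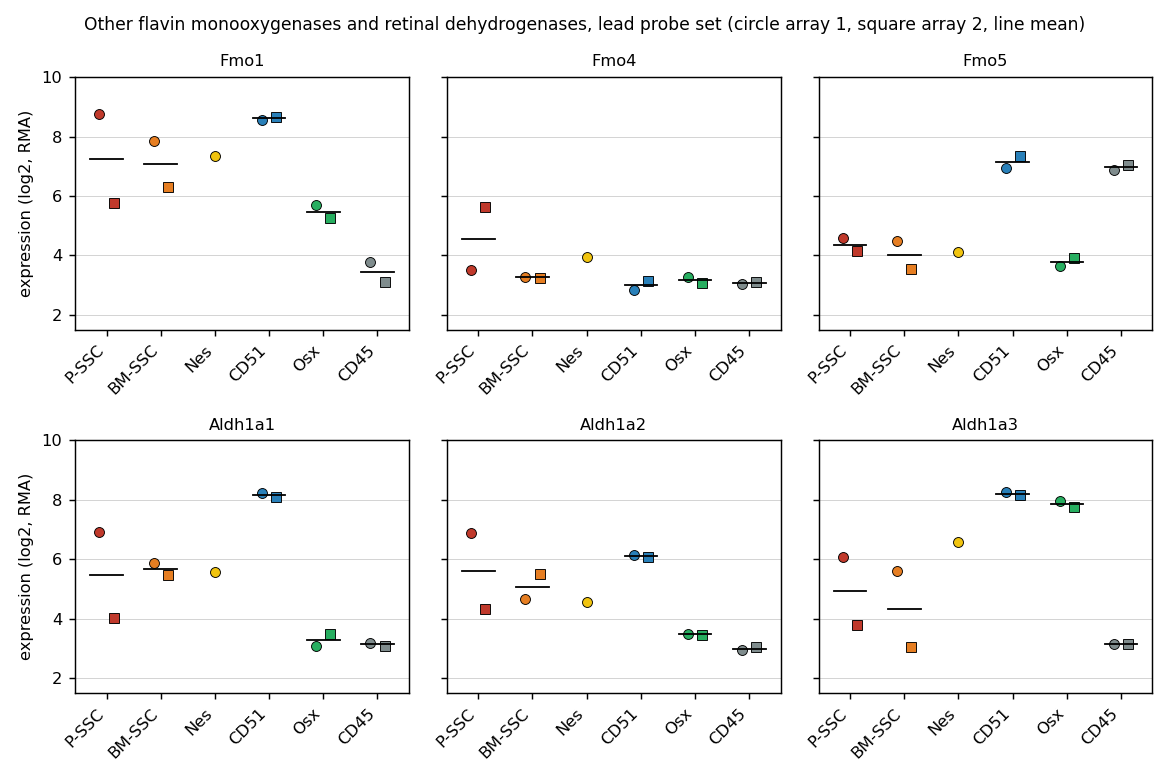
Expression of the lead probe sets of Fmo1, Fmo4, Fmo5, Aldh1a1, Aldh1a2 and Aldh1a3 (log2, vertical axis) on 11 arrays by population (horizontal axis), with circles for array 1, squares for array 2 and lines for means. Fmo5 is near 7 only in CD51+ and CD45+ cells, Aldh1a3 is near 8 in both CD51+ and Osx+ cells, and the P-SSC arrays lie far apart for Fmo1 (8.75 and 5.76), Aldh1a1 (6.94 and 4.04) and Aldh1a2 (6.89 and 4.32).

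Aldh1a1 was highest in CD51+ cells and at its lowest in Osx+ and CD45+ cells. It read 8.23 and 8.10 in CD51+ cells, 5.89 and 5.47 in BM-SSCs, 5.59 in Nes+ cells, 6.94 and 4.04 in P-SSCs, 3.10 and 3.50 in Osx+ cells and 3.18 and 3.10 in CD45+ cells. No array of another population reached the CD51+ arrays, the BM-SSC, Nes+ and P-SSC arrays overlapped, and so did the Osx+ and CD45+ arrays. On CD45+ array 2 Aldh1a1 had the same shared value as Fmo1, under the lower quartile of that array. CD51+ cells were 5.03 above CD45+ cells (SE 0.808, adjusted p = 0.0144) and 4.87 above Osx+ cells (adjusted p = 0.0246), which are 32.6-fold and 29.2-fold. BM-SSCs were 2.54 and P-SSCs 2.35 above CD45+ cells, with adjusted p of 0.0994 and 0.102. In the reduced set, from 1 array each, those differences were 2.76 and 3.80. The calls of CD51+ against CD45+ and against Osx+ cells were kept in 6 and 4 of 10 fits that left out 1 array. Both were lost after quantile normalization, where limma's adjusted p was 0.0824 and 0.153. Skeletal muscle genes were also high in CD51+ cells, where the summed log2 level of 9 of them was 11.40 and 12.39, against 7.58 to 9.35 on the other arrays. Of these 9, 6 were higher in CD51+ than in CD45+ cells and 4 than in Osx+ cells, beside 2.95% and 1.51% of all probe sets. Myh1, a muscle myosin, read 7.79 and 8.83 in CD51+ cells and 2.09 to 3.61 elsewhere, and the part of these genes in the CD51+ levels of Aldh1a1 and the other members was not tested. Aldh1a7, a close copy of Aldh1a1 that could share its probes, read 4.99 and 4.85 in CD51+ cells and 2.61 to 4.03 elsewhere, so the 2 genes are uncertain as separate signals.

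Aldh1a2, the dehydrogenase that makes most retinoic acid in the embryo, followed a like pattern at smaller differences. It read 6.15 and 6.08 in CD51+ cells, 6.89 and 4.32 in P-SSCs, 4.68 and 5.49 on the BM-SSC arrays, 4.58 in Nes+ cells, 3.50 and 3.45 in Osx+ cells and 2.96 and 3.04 in CD45+ cells. The Osx+ arrays stood between the CD45+ arrays and the rest without overlap, and the P-SSC arrays spanned the CD51+ and BM-SSC arrays. The Aldh1a2 value was shared by 136 other probe sets on CD45+ array 2 and by 133 on the Nes+ array. No Aldh1a2 difference passed in the fit of all arrays, the smallest adjusted p being 0.0549 for 3.11 between CD51+ and CD45+ cells. P-SSCs stood 3.90 and BM-SSCs 1.68 above CD45+ cells in the reduced set. P-SSCs minus CD51+ cells changed sign between the 2 fits, from -0.50 (adjusted p = 0.602) to 0.78, and P-SSCs minus BM-SSCs went from 0.52 (adjusted p = 0.980) to 2.22. The reduced values rest on a single array per SSC population.

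Aldh1a3 differed from its relatives in being high in Osx+ cells. Its lead probe set read 8.26 and 8.17 in CD51+ cells, 7.96 and 7.78 in Osx+ cells, 6.58 in Nes+ cells, 6.07 and 3.78 in P-SSCs, 5.62 and 3.04 on the BM-SSC arrays and 3.16 and 3.15 in CD45+ cells. CD51+, Osx+ and Nes+ arrays each stood clear of the next, whereas P-SSC, BM-SSC and CD45+ arrays overlapped in turn. Aldh1a3 was 5.06 higher in CD51+ cells (SE 0.926, adjusted p = 0.0215) and 4.71 higher in Osx+ cells (adjusted p = 0.0187) than in CD45+ cells, or 33.3-fold and 26.2-fold. BM-SSCs were 3.54 below Osx+ cells, with an adjusted p of 0.245, and -2.25 apart in the reduced set, from 1 BM-SSC array. The CD51+ and Osx+ calls were kept in 4 and 6 of 10 fits that left out 1 array. Both were lost after quantile normalization, where limma's adjusted p was 0.123 and 0.103. As a description only, P-SSCs were 2.94 below Osx+ cells. Of the other probe sets, 1427395_a_at passed in Osx+ against CD45+ cells (2.13, adjusted p = 0.0381), and 1417642_at, with 0.73 there, did not (adjusted p = 0.579). Neither passed in CD51+ against CD45+ cells, at 1.60 (adjusted p = 0.131) and 1.36 (adjusted p = 0.175). The gap between BM-SSCs and Osx+ cells was smaller on both, at -1.08 (adjusted p = 0.579) and -0.21 (adjusted p = 0.838) in limma's test. As a description, P-SSCs minus Osx+ cells was -0.82 and -0.37, with overlapping arrays on 1417642_at.

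Cartilage genes, like Aldh1a3, had their highest summed level on the Osx+ and CD51+ arrays. The summed log2 level of 9 chondrocyte genes was 16.77 and 16.79 in Osx+ cells, 13.78 and 14.10 in CD51+ cells, 13.28 in Nes+ cells, 13.49 and 11.75 for BM-SSCs, 13.44 and 8.32 for P-SSCs and 6.61 and 6.597 in CD45+ cells. All 9 were higher in Osx+ than in CD45+ cells, 5 in CD51+ than in CD45+ cells, and 6 were lower in BM-SSCs than in Osx+ cells. Over all probe sets 3.65% and 2.95% passed as higher and 0.584% as lower in these comparisons. Col2a1, the main collagen of cartilage, read 14.81 and 14.75 in Osx+ cells. Unlike Aldh1a3, the list was lower in CD51+ than in Osx+ cells, with 5 of 9 passing beside 0.711% of all probe sets as lower. The list was also near its CD51+ level on BM-SSC array 1, P-SSC array 1 and the Nes+ array, where Aldh1a3 read 5.62, 6.07 and 6.58. The part of the list in the Aldh1a3 levels was not tested.

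By comparison, members passed in 14 of 64 tested pairs of member and comparison. Against CD45+ cells, 2 of 6 passed in P-SSCs beside 9.77% of all probe sets, 2 of 7 in BM-SSCs beside 8.44%, 4 of 7 in CD51+ cells beside 5.85%, and 2 of 6 in Osx+ cells beside 9.27%. Against Osx+ cells, 2 of 6 passed in CD51+ cells beside 2.22%, and 0 of 6 in BM-SSCs beside 0.615%, where 2 had an unadjusted p under 0.05. Fmo5 alone passed against CD51+ cells, which was 1 of 6 in P-SSCs beside 0.595% and 1 of 7 in BM-SSCs beside 0.617%. No member passed between P-SSCs and BM-SSCs (0 of 6) or between BM-SSCs and the Nes+ array (0 of 7), where 0% of all probe sets passed in limma's test and no member had an unadjusted p under 0.05, although 931 and 376 of the 45037 probe sets did. Since the members were chosen with results known, these shares describe them and do not test them.

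Use of the reduced set raised the counts for all probe sets as well as for the members, and with 1 array per SSC population they cannot be read as replicated calls. Between BM-SSCs and Nes+ cells, 1 array against 1, 27.9% of all probe sets passed where 0% had done so, and 1 of 7 members, Aldh1a3, was among them. In the other comparisons 5 of 6 members passed in P-SSCs and 6 of 7 in BM-SSCs against CD45+ cells, beside 48.6% and 37.4% of all probe sets. In BM-SSCs against Osx+ cells 4 of 6 passed beside 14.6%. Against CD51+ cells 4 of 6 passed in P-SSCs beside 29.6% and 5 of 7 in BM-SSCs beside 14.2%, and between P-SSCs and BM-SSCs 1 of 6 passed, Aldh1a2, beside 2.06%.

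**Figure D3:**
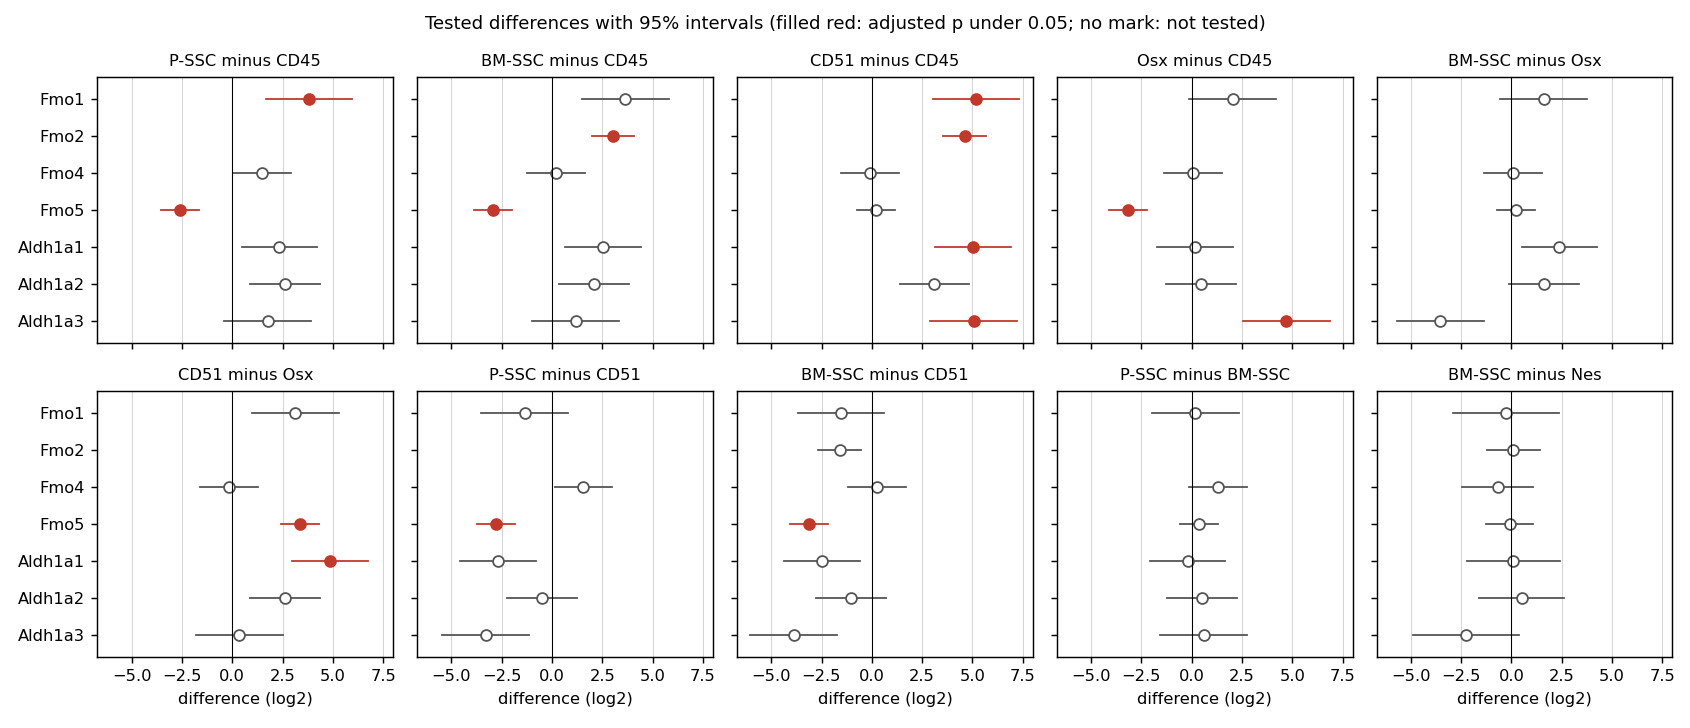
Differences of the lead probe sets (log2, horizontal axis, first population minus second) with 95% intervals for the 7 genes in 10 comparisons; red filled points had an adjusted p under 0.05 and genes without a point were not tested. The red points number 4 in CD51+ against CD45+ cells, Fmo5 is the only red point against CD51+ cells, and none is red between P-SSCs and BM-SSCs.

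Lists of related genes gave the setting of the members. In CD51+ against CD45+ cells 2.95% of probe sets passed as higher and 2.90% as lower. There, 3 of 23 genes of retinoid supply and retinol oxidation were higher and 0 lower, with a median difference of 0.36 beside -0.07 for all genes. Adh1, an alcohol dehydrogenase that oxidises retinol, read 10.35 and 10.59 in CD51+ cells, 8.28 and 4.86 in P-SSCs, 6.21 and 5.55 on the BM-SSC arrays, 6.35 in Nes+ cells, 5.56 and 6.43 in Osx+ cells and 4.21 and 4.22 in CD45+ cells, and its difference of 6.25 between CD51+ and CD45+ cells passed (adjusted p = 0.0125). The other 2 were Rbp4, the plasma carrier of retinol (3.14, adjusted p = 0.0331), and Crabp2, which carries retinoic acid to the nucleus (1.74, adjusted p = 0.0434).

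In Osx+ against CD45+ cells 3.65% of probe sets passed as higher and 5.62% as lower, and 2 supply genes were higher and 1 lower, with a median of 0.18 beside 0.02. Rbp4 (3.91, adjusted p = 0.00909) and Crabp2 (1.65, adjusted p = 0.0378) were higher. Rdh12, a retinal reductase, was lower (-3.16, adjusted p = 0.00303), and it shared with Fmo5 high values in CD45+ cells (7.34 and 7.85) and CD51+ cells (7.98 and 8.06) and values of 4.27 to 5.90 elsewhere. In P-SSCs against CD45+ cells, where 2.48% passed as higher and 7.29% as lower, Adh7, another retinol-oxidising enzyme, was higher (1.85, adjusted p = 0.0331) and Rdh12 lower (-2.05, adjusted p = 0.0229). In BM-SSCs, where 2.18% passed as higher and 6.26% as lower, Rdh12 alone of the 23 passed (-2.76, adjusted p = 0.00803). In the reduced set 8 supply genes were higher and 5 lower in P-SSCs, and 6 higher and 6 lower in BM-SSCs, beside the 48.6% and 37.4% of all probe sets given above; Rdh12 differed by -2.40 and -2.44 and Adh7 in P-SSCs by 1.46.

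Of the 2 enzymes that break down retinoic acid, Cyp26b1 was higher in Osx+ than in CD45+ cells (3.47, adjusted p = 0.0412), at 7.92 and 7.95 against 4.51 and 4.40, with 8.87 and 5.997 in P-SSCs. Cyp26a1 was higher in P-SSCs than in CD45+ cells (1.27, adjusted p = 0.0433). Among 6 retinoic acid receptors, Rarb was higher in P-SSCs (2.90, adjusted p = 0.00593) and in CD51+ cells (2.17, adjusted p = 0.0209) and Rarg in Osx+ cells (2.06, adjusted p = 0.0252), each against CD45+ cells. Rarb read 5.32 and 5.70 in P-SSCs and 2.63 and 2.57 in CD45+ cells, and its values on the other arrays, from 3.36 to 5.10, lay between. In the reduced set the P-SSC differences were 2.71 for Rarb and 1.13 for Cyp26a1.

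Of 12 genes that respond to retinoic acid, 3 were higher in CD51+ cells, 5 in Osx+ cells, 2 in P-SSCs and 1 in BM-SSCs than in CD45+ cells, and none was lower. The medians were 1.78, 1.32, 1.75 and 1.35, beside -0.07, 0.02, 0.19 and 0.08 for all genes. Rarres2, which encodes the secreted protein chemerin, read 11.04 and 11.17 in CD51+ cells and 5.21 and 4.80 in CD45+ cells, a difference of 6.10 (adjusted p = 0.0118). Tgm2, transglutaminase 2, was 6.11 higher (adjusted p = 0.0499) and Rarres1 4.82 higher (adjusted p = 0.00129) in Osx+ than in CD45+ cells. Rai14 was 4.43 higher in BM-SSCs (adjusted p = 0.0358) and 3.93 higher in Osx+ cells (adjusted p = 0.0495) than in CD45+ cells. Rarb, Crabp2 and the Cyp26 genes are on this list too. On the reduced set 11 of the 12 were higher in P-SSCs and 8 in BM-SSCs, where 48.6% and 37.4% of all probe sets passed in either direction. In CD51+ against Osx+ cells Rarres1 was lower (-3.0, adjusted p = 0.0272), and of the supply genes Rdh12 was higher (3.58, adjusted p = 0.00569).

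**Figure D4:**
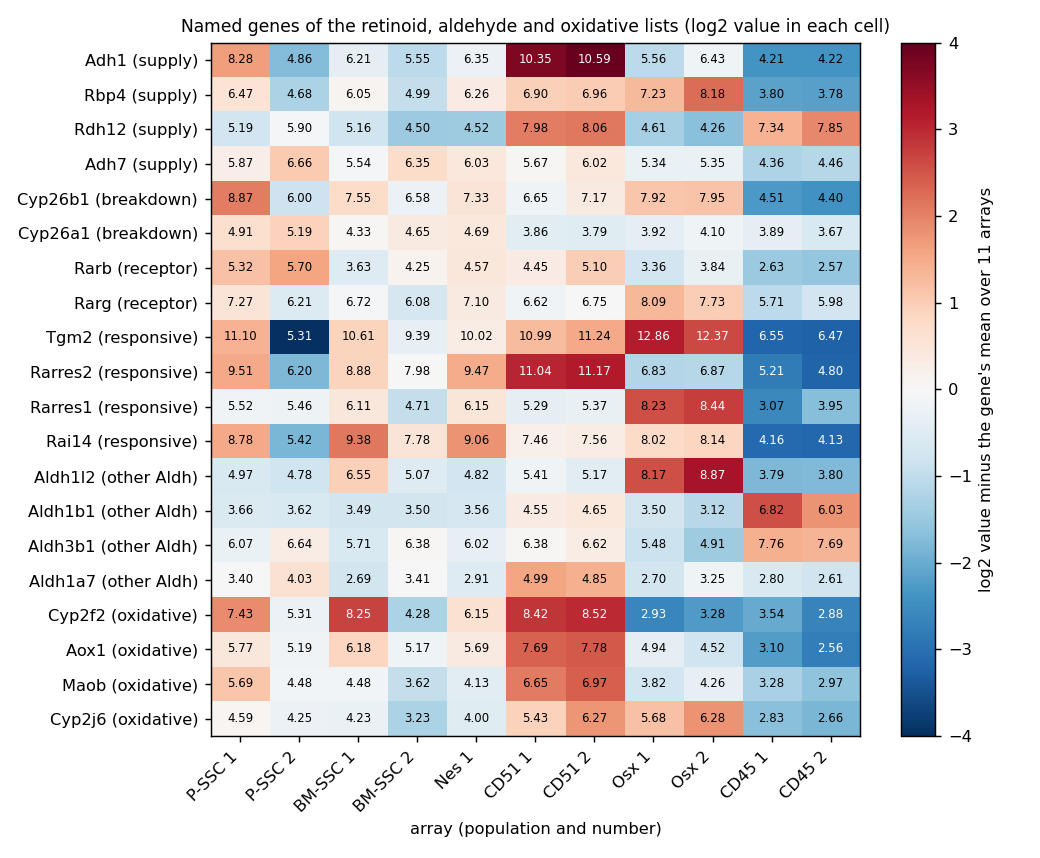
Values (log2, printed in each cell) of the named genes of the retinoid, aldehyde dehydrogenase and oxidative lists (rows) on the 11 arrays (columns), coloured by the difference from each gene's own mean. Adh1, Rarres2, Aox1 and Maob are reddest in CD51+ cells, Rarres1 and Aldh1l2 in Osx+ cells and Aldh1b1 in CD45+ cells.

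Among 16 other aldehyde dehydrogenases the directions were mixed: against CD45+ cells 1 was higher and 3 lower in Osx+ cells, 1 higher and 1 lower in CD51+ cells, and 0 higher in either SSC population, with 1 lower in P-SSCs and 2 in BM-SSCs. Aldh1l2, a mitochondrial folate enzyme, was higher in Osx+ cells than in CD45+ cells (4.72, adjusted p = 0.00138) and than in CD51+ cells, where CD51+ minus Osx+ was -3.23 (adjusted p = 0.0204). Aldh1b1, a mitochondrial relative of the retinal dehydrogenases, was lower than in CD45+ cells in P-SSCs (-2.78, adjusted p = 0.00476), BM-SSCs (-2.92, adjusted p = 0.00394), CD51+ cells (-1.82, adjusted p = 0.0281) and Osx+ cells (-3.11, adjusted p = 0.00189). Aldh3b1 fell in Osx+ cells (-2.53, adjusted p = 0.00674) and by less in BM-SSCs (-1.68, adjusted p = 0.0407). With the reduced set Aldh1b1 differed from CD45+ cells by -2.76 in P-SSCs and by -2.93 in BM-SSCs. Aldh1a7 (2.22, adjusted p = 0.0207) was the 1 gene of this list that was higher in CD51+ than in CD45+ cells.

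Of 20 other enzymes of oxidative drug metabolism, 5 were higher in CD51+ cells and 5 in Osx+ cells than in CD45+ cells and none was lower, with medians of 1.60 and 1.07 beside -0.07 and 0.02 for all genes. In P-SSCs 2 were higher, where 2.48% of all probe sets passed as higher, and in BM-SSCs 1, where 2.18% did. The medians were 0.96 and 0.95, beside 0.19 and 0.08 for all genes, and 1.23 and 1.09 in the reduced set. Aox1, aldehyde oxidase, lay above its CD45+ values on every other array, at 7.69 and 7.78 in CD51+ cells, 5.77 and 5.19 in P-SSCs, 6.18 and 5.17 on the BM-SSC arrays, 5.69 in Nes+ cells, 4.94 and 4.52 in Osx+ cells and 3.10 and 2.56 in CD45+ cells. Aox1 passed against CD45+ cells in CD51+ cells (4.91, adjusted p = 0.00281), BM-SSCs (2.84, adjusted p = 0.0102), P-SSCs (2.65, adjusted p = 0.0132) and Osx+ cells (1.90, adjusted p = 0.0374). In CD51+ cells Cyp2f2, a cytochrome P450 best known from lung, was 5.26 higher (adjusted p = 0.0469), Maob, monoamine oxidase B, 3.68 higher (adjusted p = 0.00831) and Cyp2j6 3.11 higher (adjusted p = 0.0118). In CD51+ against Osx+ cells, where 1.51% of probe sets passed as higher and 0.711% as lower, Aox1 (3.004, adjusted p = 0.0156) and Maob (2.77, adjusted p = 0.0344) were higher and Cbr2, a carbonyl reductase, lower (-2.31, adjusted p = 0.0303).

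The genes with a pattern most like that of Fmo2 were sought among the 11914 genes whose lead probe set spanned at least 2 log2 units over the arrays. Pearson's correlation over the 11 arrays is a description here, since the arrays share 6 populations. The 10 highest were Pla2r1 (0.971), Cfb (0.971), Hlf (0.952), Abcb1a (0.952), Clec1a (0.952), Twist2 (0.942), Ccn5 (0.940), Adamtsl5 (0.940), 5031426D15Rik (0.939) and Scg3 (0.939). Pla2r1, a receptor of secreted phospholipase A2, read 6.82 and 7.41 in CD51+ cells, 6.82 and 6.66 in P-SSCs, 6.30 and 6.54 on the BM-SSC arrays, 6.13 in Nes+ cells, 5.68 and 5.20 in Osx+ cells and 5.17 and 4.86 in CD45+ cells. Scg3, a granule protein of endocrine cells, had the widest span of the 10, from 3.99 on CD45+ array 2 to 9.62 on CD51+ array 2. By Spearman's rank correlation Pla2r1 ranked 2 and Cfb, complement factor B, ranked 103. In the set of 9 arrays Cfb had a correlation of 0.983 and ranked 3, and Pla2r1 had 0.973 and ranked 10.

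Of the other members, Aldh1a2 (0.914, rank 21), Fmo1 (0.884, rank 49) and Aldh1a1 (0.878, rank 59) followed Fmo2 over the 11 arrays. Over the reduced set their correlations were 0.964, 0.951 and 0.968. The values were lower for Fmo4 (0.284), Aldh1a3 (0.262) and Fmo5 (0.04). The summed log2 level of 11 fibroblast and adventitial genes, such as Dcn, Lum and Pdgfra, was also highest in CD51+ cells. It was 16.29 and 16.39 there, 15.79 and 9.56 in P-SSCs, 15.87 and 14.12 on the BM-SSC arrays, 15.56 in Nes+ cells, 14.50 and 14.66 in Osx+ cells and 11.35 and 11.36 in CD45+ cells. On P-SSC array 2 this sum lay below CD45+ cells, but the median of the 11 genes was 6.19 there against 4.4 and 4.6. In Osx+ cells the sum was above that on BM-SSC array 2, where Fmo1, Aldh1a1 and Aldh1a2 were not. Of the 11, 5 were higher in CD51+ than in CD45+ cells at an adjusted p under 0.05 and 2 were higher in CD51+ than in Osx+ cells. The shares of all probe sets that passed as higher were 2.95% and 1.51%. The part of these genes in the members' differences was not tested.

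**Figure D5:**
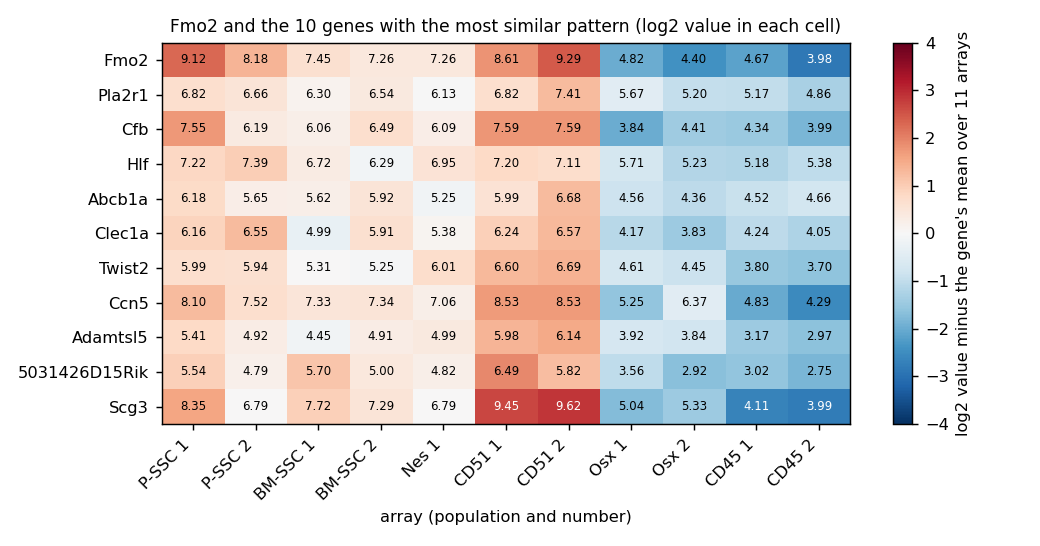
Values (log2, printed in each cell) of Fmo2 and the 10 genes with the highest Pearson correlation to it (rows) on the 11 arrays (columns), coloured by the difference from each gene's own mean. All rows are red in CD51+ cells and blue in CD45+ cells, and P-SSC array 2 is above the mean of Fmo2 at 8.18.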

How the data were processed

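RNA from 11 sorted samples was hybridised to Affymetrix mouse A430 arrays. The authors deposited log2 values after robust multichip averaging in Partek GS, and per the labels and methods tested them with limma; the genome build is not given in the sources used here. No deposited column of sample values was left unused (0). Gene names came from the platform annotation, in which 34945 probe sets had 1 symbol, 932 several and 9160 none; 64 control probe sets were left out. One limma model (limma 3.58.1, R 4.3.3) with a mean per population was fitted to all 11 arrays (5 residual and 2.65 prior degrees of freedom), with Benjamini-Hochberg adjustment over 45037 probe sets within each comparison and a threshold of 0.05. The number of arrays limits the precision.

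The members, lists and tests were chosen with earlier results of these data known. Named genes were all members, up to 4 genes of each pathway list that passed in at least 1 comparison and had the largest range of population means, sorting genes, and the 10 genes most like Fmo2. Crabp2 and Cbr2 were named outside this rule after their values were seen. Dim probe sets, other normalizations and variance models, a replicate block and left-out arrays were tried as alternatives.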

Additional observations from a re-analysis of the deposited data

How the results depend on the processing

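Members passed in 10 of 26 tested pairs against CD45+ cells, 2 of 12 against Osx+ cells and 2 of 26 among the stromal populations. With an unadjusted p under 0.05 the counts were 17, 6 and 8. With array 2 of both SSC populations left out they were 20, 8 and 11, and Aldh1a2 in P-SSCs minus CD51+ cells turned to 0.78. With the second probe set of each gene that had one, and the lead of the other genes, they were 6, 1 and 0. The Fmo1 and Aldh1a1 calls among these were those of the main fit, since neither gene had a second probe set. Quantile normalization left 8, 0 and 0, and fits of only the groups compared 9, 4 and 0. Array weights gave 12, 4 and 0. With the replicate block they were 11, 2 and 0. The numbers were not taken to pair the arrays, since deviations correlated between -0.267 and 0.784 and only 1 of 10 pairs of populations, P-SSC with BM-SSC, was over 0.1. Median centring (9, 2 and 2), a variance trend with robust estimation, the filter on dim probe sets and 1 probe set per gene (12, 2 and 2 each) stayed within 1.5 times of the main counts. Counts over all 45037 probe sets also moved between settings. In P-SSCs against CD45+ cells they were 4400 in the main fit, 15086 unadjusted, 2862 quantile-normalized, 0 with only the groups compared and 587 with array weights. In the same order they were 2634, 7253, 1367, 18689 and 18890 in CD51+ against CD45+ cells. They were 1002, 4040, 552, 8483 and 10386 in CD51+ against Osx+ cells, and 268, 10146, 124, 0 and 0 in P-SSCs against CD51+ cells.

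Leaving out 1 array at a time moved the counts from 1 to 17 against CD45+ cells, from 0 to 5 against Osx+ cells and from 0 to 10 among the stromal populations. The lowest count against CD45+ cells came without CD45+ array 2, and 17 came without either P-SSC array. Fmo5 in Osx+ against CD45+ cells was the 1 of 14 calls that passed in all 10 such fits, and none of the 14 differences changed sign under any alternative. Fmo1 in P-SSCs against CD45+ cells passed in 4 of the 10, with differences of 2.33 to 5.31. Each population rests on 2 arrays or fewer, which limits what these fits can show. The number of all probe sets that passed also shifted between these fits, so the member counts do not describe the members alone. The cause of these shifts was not tested.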
